A study of Homo sapiens with 12 samples.

Results

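The transcripts of ACKR3, CXCR4 and CXCL12 were described in U-87 MG, an established line of human glioblastoma cells kept in hypoxia, with and without the hypoxia-inducible factors. The members were the 3 genes of that name among the 20263 genes of the deposited table, and they were chosen by the measured TPM of ACKR3, which was lower after loss of HIF2α and not after loss of HIF1α alone. Its levels are therefore given as a description with no test. Messenger RNA was sequenced in 4 groups of 3 libraries, all cultured at 1% O2 for 72 h according to the record of the experiment. One group was titled Control and was taken to carry the empty vector of the study (vector). The others were HIF1α knockout cells (HIF1α-ko), HIF2α knockout cells (HIF2α-ko) and cells with both lost (HIF1α/2α-ko, the dual knockout). The study's methods give a shorter hypoxia for mRNA in general, and which time applied to these libraries was not settled. No normoxic group was used here, so each difference is one between genotypes under hypoxia. The sources used here do not say whether a knockout group was 1 clone or a pool, nor whether the 3 libraries of a group came from separate cultures, so every p-value measures only the spread between these libraries.

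CXCL12 is a chemokine that guides migrating cells and holds stem cells in their niche. It binds CXCR4, a receptor that signals through Gi proteins to the PI3K, MAPK and RAC pathways, and ACKR3 (also known as CXCR7), an atypical receptor that recruits β-arrestin, does not activate G proteins in the usual way and carries CXCL12 into the cell for degradation. ACKR3 also binds CXCL11, adrenomedullin and opioid peptides. In glioma the axis is known for its part in invasion, angiogenesis and the perivascular niche, and CXCR4 and CXCL12 are known hypoxia-responsive genes in other cell types.

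ACKR3 (ENSG00000144476) is a protein-coding gene at chr2:236567787-236582358 on the plus strand of GRCh38. CXCR4 (ENSG00000121966) lies on the minus strand of the same chromosome at chr2:136114349-136118165, and CXCL12 (ENSG00000107562) on the minus strand at chr10:44370165-44386493. To show what a hypoxia-inducible factor could read near a start site, the RefSeq promoters (GRCh38.p14, 250 bases before to 50 after a start site) were searched on both strands for ACGTG and GCGTG, the core letters of the hypoxia response element. ACKR3 had no entry among these promoters, so its promoter was not searched. CXCR4 was listed with 3 start sites, of which the one farthest upstream is printed. CXCL12 was listed with 1, and both sequences run from 5′ to 3′ on the strand of the gene, with core letters in capitals.
CXCR4 promoter, chr2:136118100-136118399, minus strand: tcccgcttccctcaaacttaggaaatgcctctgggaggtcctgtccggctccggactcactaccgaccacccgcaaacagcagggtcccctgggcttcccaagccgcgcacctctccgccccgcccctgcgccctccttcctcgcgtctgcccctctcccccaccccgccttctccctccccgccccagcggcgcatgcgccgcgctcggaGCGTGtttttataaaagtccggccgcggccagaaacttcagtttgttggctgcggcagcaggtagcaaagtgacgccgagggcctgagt
CXCL12 promoter, chr10:44385048-44385347, minus strand: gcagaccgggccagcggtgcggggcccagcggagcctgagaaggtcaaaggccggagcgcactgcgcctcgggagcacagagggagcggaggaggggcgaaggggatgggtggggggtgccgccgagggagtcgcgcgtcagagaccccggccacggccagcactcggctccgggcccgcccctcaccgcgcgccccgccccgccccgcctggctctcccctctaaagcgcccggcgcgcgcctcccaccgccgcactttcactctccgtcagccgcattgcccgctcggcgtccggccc
The printed CXCR4 sequence held 1 core, GCGTG, whose first base lay 39 bases before the start site (offset -39), the windows of the other 2 CXCR4 start sites held 0 and 2, and the CXCL12 sequence held 0. Over all 35116 promoters of the same length, 48.45% held at least 1 of these cores, so the match is a description of the letters and not of binding.

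The labels of the knockouts were checked on HIF1A and EPAS1, the genes of HIF1α and HIF2α. EPAS1 had 286, 333 and 346 TPM (reads per gene length, scaled to a fixed total in each library) in the vector libraries, 251, 288 and 255 in HIF1α-ko cells, 87.6, 118 and 116 in HIF2α-ko and 101, 119.5 and 129.9 in the dual knockout. It was lower than vector by a log2 difference of -1.59 in HIF2α-ko (limma adjusted p = 0.000375) and -1.45 in the dual knockout (adjusted p = 1.3e-05). HIF1A was lower by -1.34 in HIF1α-ko (mean 48.5 against 124 TPM, adjusted p = 0.000851) and by -0.71 in HIF1α/2α-ko (mean 75.5 TPM, adjusted p = 0.0104). In HIF2α-ko HIF1A differed from vector by -0.52 (limma adjusted p = 0.112). The dual knockout differed by -0.19 from HIF2α-ko (limma adjusted p = 0.453), so HIF1A RNA did not separate these groups. It was above HIF1α-ko by 0.64 (limma adjusted p = 0.0287), a call lost without any 1 of 4 libraries (0.0534 to 0.121). Both transcripts thus remained measurable in their own knockouts. The 7 astroglial and neural markers summed to between 11.2 and 25 TPM over all libraries and 3 of them had a mean above 1 TPM, while GFAP had at most 0.639 TPM and AQP4 was listed at 0 in every library. Of the 3 tested, 1 was called higher and 1 lower in HIF1α/2α-ko, where 31.8% and 14.8% of all genes tested were. In HIF2α-ko 0 were called (1 lower at an unadjusted p under 0.05), where 11.0% of all genes tested were. The 6 mesenchymal markers summed to between 13703 and 17042 TPM in vector, 8192 and 10331 in HIF2α-ko cells and 7068 and 10648 in the dual knockout, with 1 and 4 of the 5 tested called lower. Most of that sum was VIM, the filament protein vimentin, with log2 differences from vector of -0.29 in HIF1α-ko (limma adjusted p = 0.198), -0.81 in HIF2α-ko (limma adjusted p = 0.00858) and -0.96 in the dual knockout (limma adjusted p = 0.000412). VIM was thus called lower in both groups where ACKR3 was lower. The sum of the markers was also below vector in HIF1α-ko, where ACKR3 was not lower. There 2 of the 5 markers tested were called lower by limma, more than the 1 of HIF2α-ko. The share of all genes tested that was called lower was 8.77% with HIF1α lost, 5.89% with HIF2α lost and 14.8% with both lost. The part of these markers in the ACKR3 values was not tested. CDKN2A, which is deleted in this line, was listed at 0 throughout. Of the 7 leukocyte markers, CD68, a lysosomal protein, had 587 to 1633 TPM in single libraries, was the only one tested and was lower than vector by -0.64 in HIF1α-ko (limma adjusted p = 0.00995) and -1.12 in the dual knockout (limma adjusted p = 0.0001). The other 6 together summed to between 0.208 and 1.00 TPM. The endothelial markers summed to between 5.92 and 11.8 TPM in vector, 5.39 and 8.22 in HIF1α-ko cells, 9.16 and 13.7 in HIF2α-ko cells and 3.70 and 4.26 in the dual knockout. Replicate 1 stood apart in every group, with a Pearson's r across genes with the other 2 libraries of 0.983 to 0.984 in vector, 0.991 in HIF1α-ko cells, 0.992 in HIF2α-ko cells and 0.987 to 0.988 in the dual knockout, against 0.994 to 0.996 between replicates 2 and 3. With replicate 1 of every group left out, the genes called higher in HIF1α-ko went from 2031 to 4534.

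ACKR3 was high with HIF2α present and low without it. Its level was 69.1, 64.3 and 96.9 TPM in the vector libraries and 85.6, 109 and 73.2 TPM in HIF1α-ko. It was 9.38, 12.6 and 14.0 TPM in HIF2α-ko and 5.45, 6.66 and 5.35 TPM in the dual knockout. The vector and HIF1α-ko libraries overlapped, all HIF2α-ko libraries lay below both, and all HIF1α/2α-ko libraries lay below all HIF2α-ko libraries. The mean was 76.8 ± 17.6 TPM in vector, 89.1 ± 18.0 in HIF1α-ko cells, 12 ± 2.38 in HIF2α-ko and 5.82 ± 0.732 in the dual knockout (SD, n = 3). Against the vector mean this was 116% in HIF1α-ko cells, 15.6% in HIF2α-ko and 7.58% in the dual knockout, so the mean was 6.40-fold and 13.2-fold lower in the groups without HIF2α. In descending order the groups stood HIF1α-ko, vector, HIF2α-ko and HIF1α/2α-ko, and the neighbours HIF1α-ko and vector differed by less than their spread.

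On the scale of log2(TPM + 1) the ACKR3 difference from vector was 0.22 in HIF1α-ko cells, -2.57 in HIF2α-ko and -3.49 in the dual knockout, each with a standard error of 0.20. Removing HIF2α from HIF1α-ko cells went with a difference of -3.71, and removing HIF1α from HIF2α-ko cells with -0.92. The interaction, which is the effect of HIF2α loss with HIF1α already lost minus the same effect with HIF1α present, was -1.14 (standard error 0.29), so the distance was wider on the HIF1α-ko background. With quantile normalization the last pair of values became -1.25 and -1.41. The pseudocount of 1 makes these differences smaller than those of the TPM means for a gene at this level. Vector, HIF1α-ko and the other groups were fitted together, so the comparisons share libraries and do not support each other.

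Among the 11731 genes that were fitted, ACKR3 had the largest log2 difference below vector in HIF2α-ko and again in the dual knockout, and ranked 6272 from the lowest in HIF1α-ko. Within a library it stood between rank 1275 and 1763 of the 20263 genes from the highest TPM in vector, and between 7545 and 8303 in the dual knockout. The call pattern that describes it, lower in HIF2α-ko and HIF1α/2α-ko and not called in HIF1α-ko, was met by 131 genes, or 1.12% of those tested, with ACKR3, whose place there is fixed by the choice of the gene, counted among them. Of these, again with ACKR3, 34 had a log2 difference of -1 or lower in HIF2α-ko, and 4 belonged to the lists of the axis given below, CXCL14, GNG2, PXN and EPAS1. EPAS1 was itself the gene targeted in both groups. As background, 691 genes were called lower in HIF2α-ko, which is 5.89% of those tested. With 1 library left out the count of 131 was 60 without vector replicate 3. It was 70, 71 and 63 when HIF2α-ko replicate 1, 2 or 3 was left out, and between 103 and 165 without any other. In bulk RNA, fewer cells that express a gene and less of its RNA per cell cannot be told apart.

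CXCR4 was near 0 in every library. Its level was 0.0513 TPM in vector replicate 1 and listed at 0 in the other vector libraries, and it was 0.282, 0.139 and 0.274 TPM in HIF1α-ko. It was 0.0327 and 0.0406 TPM in HIF2α-ko with 1 library at 0, and 0.0450 TPM in 1 HIF1α/2α-ko library with the others at 0. All HIF1α-ko libraries were above every other library, but none reached 1 TPM, and the gene did not pass the filter of 1 TPM in 3 libraries, so it was not tested there. When genes of any level were fitted, the log2 difference of CXCR4 between HIF1α-ko and vector was 0.27 (limma adjusted p = 0.00351), and between HIF1α/2α-ko and HIF1α-ko it was -0.28 (adjusted p = 0.00205). The size of the first of these became 1.5 with a pseudocount of 0.1, since at this level the pseudocount and not the gene sets the scale. TPM keeps no depth, so the number of reads behind these values is unknown.

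CXCL12 was listed at 0 in all 12 libraries, so no difference, fold or test could be given for the ligand that the receptors share. CXCL11, the other chemokine ligand of ACKR3, and CXCR3, the signalling receptor of CXCL11, were also listed at 0 in all 12 libraries. Genes used by every cell were not at 0, with a lowest value of 411 TPM for ACTB and 9.22 TPM for TBP. The cells thus had transcript of the scavenging receptor, while both of its chemokine ligands were listed at 0.

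ACKR3 was the most abundant of the chemokine receptors in vector cells. Of 23 chemokine receptor genes in the table, a family list added after the values of the 3 genes were seen, 17 stayed under 0.5 TPM in every library and 3 (CCR8, CXCR2 and CXCR3) were listed at 0 throughout. The 5 with a mean of at least 1 TPM over the 12 libraries were ACKR3, CCR1, CCR10, CCRL2 and XCR1. CCR1, a receptor of inflammatory CC chemokines, had 44.4, 28.7 and 32.8 TPM in vector, 30.4, 37.6 and 38.7 in HIF2α-ko and 10.3, 16.2 and 17.3 in the dual knockout. Its HIF2α-ko libraries overlapped those of vector (log2 difference 0.03, adjusted p = 0.955) and its HIF1α/2α-ko libraries lay below both (log2 difference from vector -1.22, adjusted p = 0.000417 from limma). CCRL2, an atypical receptor that presents chemerin, was likewise at 7.84 TPM in HIF2α-ko against 6.96 in vector (adjusted p = 0.607) and fell to 2.19 in HIF1α/2α-ko (log2 difference -1.27, adjusted p = 0.000813). XCR1, the receptor of lymphotactin, was at 2.09 against 1.96 TPM in HIF2α-ko (adjusted p = 0.885) and fell to 0.386 TPM in HIF1α/2α-ko (log2 difference -1.04, adjusted p = 0.00378). XCR1 was at a low level, with a HIF1α/2α-ko mean under the 1 TPM of the filter. It passed the filter through other groups, which favours a call of lower in HIF1α/2α-ko. CCR10 was called in none of the 3 comparisons with vector (adjusted p from 0.0548 to 0.0893). With HIF2α lost, CCR1 was at a higher mean level than ACKR3, 35.6 against 12 TPM, the reverse of the order in vector, where it was 35.3 against 76.8.

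**Figure D1:**
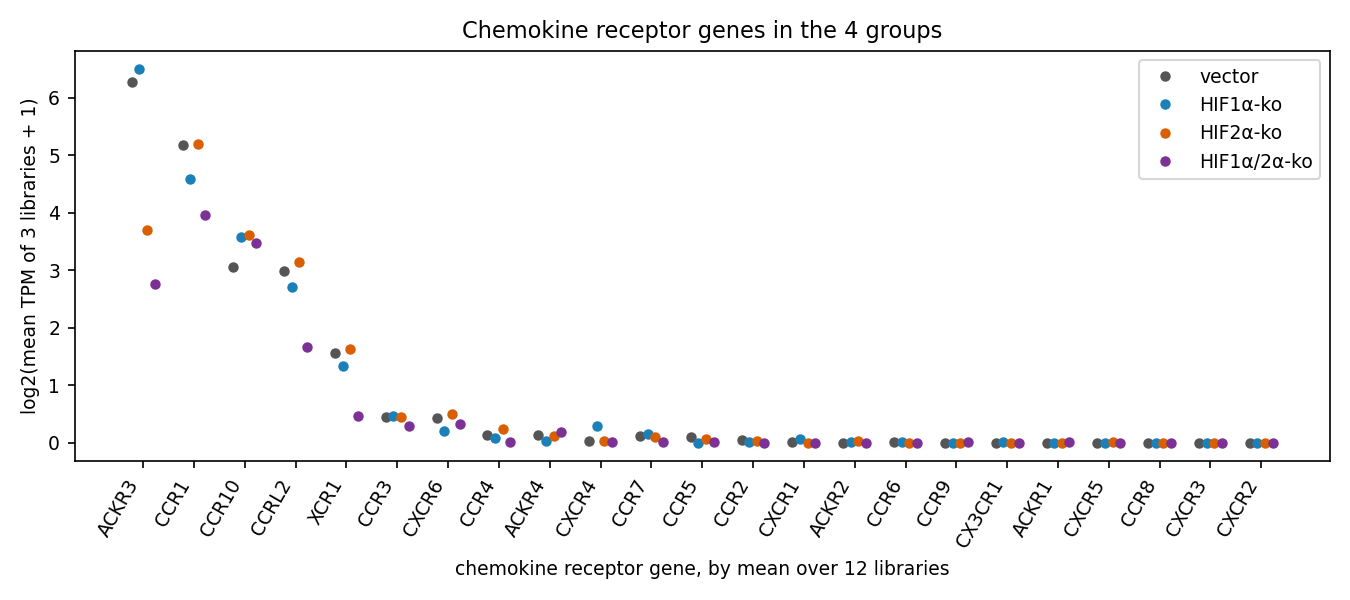
Mean TPM of each of the 23 chemokine receptor genes in the 4 groups, as log2(mean TPM + 1), ordered by the mean over all 12 libraries. ACKR3 is the highest in vector and HIF1α-ko and drops below CCR1 in HIF2α-ko and HIF1α/2α-ko, and most other receptors lie at or near 0.

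The other genes of the axis were taken from 7 lists by role, written with earlier results of these data known. Of their 98 genes, 82 passed the filter. These include the knockout targets HIF1A and EPAS1, which are counted among the lower genes of their own knockouts and of the dual knockout. In HIF2α-ko, 1 was called higher and 12 lower than vector, together 15.9% of those tested, against 11.0% of all genes tested (5.07% higher and 5.89% lower). Their median log2 difference was -0.09, against -0.04 for all genes tested. In HIF1α/2α-ko, 18 were higher and 24 lower, together 51.2%, against 46.7% of all genes (31.8% higher and 14.8% lower), with a median of -0.05 against 0.21 for all. In HIF1α-ko, 7 were higher and 15 lower, 26.8% against 26.1% of all genes (17.3% higher and 8.77% lower), with medians of 0.00 and 0.18. The shares of all genes given here are also the background for the counts of each single list below. Nothing particular to the axis was tested. With median ratio scaling, which sets the typical gene to no change, the counts of higher and lower list genes became 2 and 20 in HIF1α-ko cells, 1 and 7 in HIF2α-ko and 12 and 29 in the dual knockout. The 12 lower genes of HIF2α-ko became 5 without vector replicate 2, 6 without vector replicate 3 or any 1 HIF2α-ko library, and 7 without HIF1α-ko replicate 2 or 3, while the 1 higher gene became 4 when vector replicate 1 was left out and 2 when HIF2α-ko replicate 2 was. The 7 higher genes of HIF1α-ko became 15, 3 and 1 without vector replicate 1, 2 or 3, 1 and 2 without HIF1α-ko replicate 2 or 3 and 4 without HIF2α-ko replicate 3, and the 15 lower genes became 8 without vector replicate 3 and 7 without HIF1α-ko replicate 3.

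**Figure D2:**
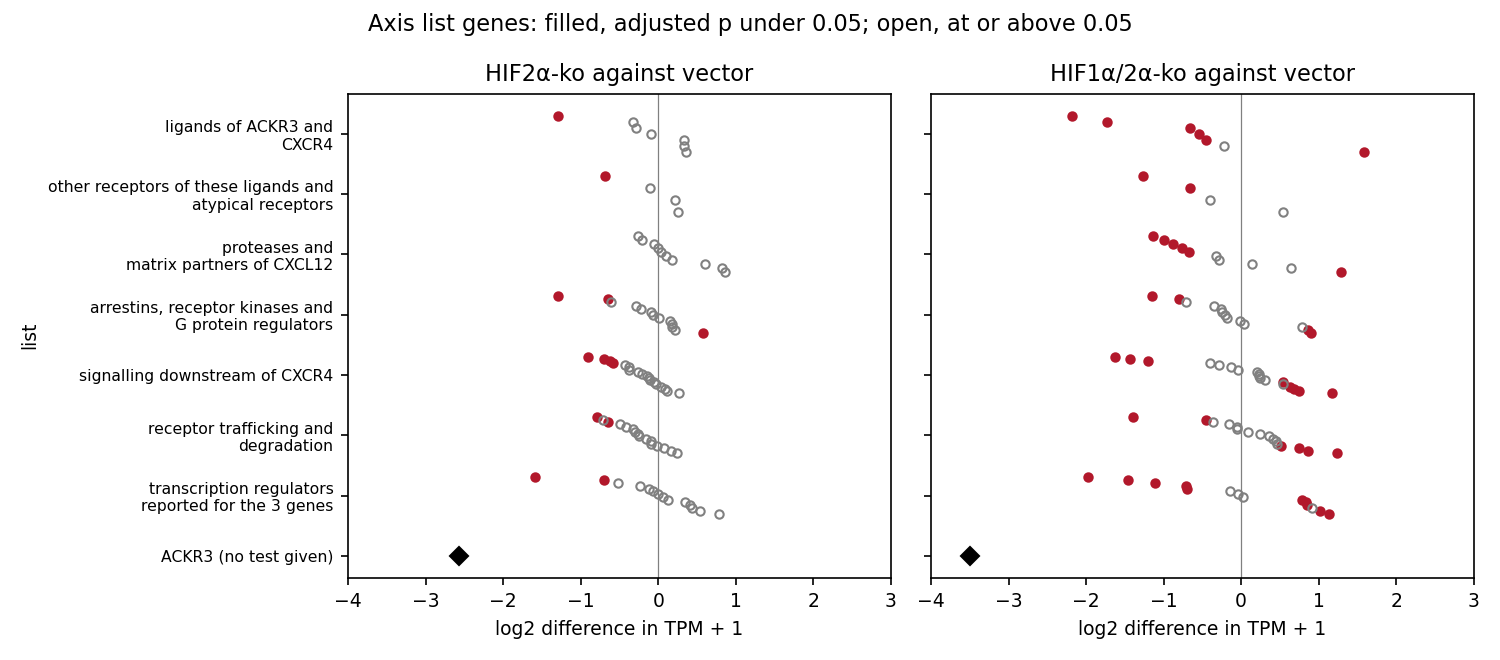
log2 difference in TPM + 1 from vector for each tested gene of the 7 lists in HIF2α-ko (left) and HIF1α/2α-ko (right), filled where the limma adjusted p was under 0.05, with ACKR3 shown as a diamond, for which no test is given. ACKR3 lies farther below 0 than every list gene in both panels, at -2.57 and -3.49.

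Among the 9 ligands, 7 were tested. In HIF2α-ko 1 was called lower and 0 higher, and in the dual knockout 5 were lower and 1 higher. CXCL14, a chemokine reported to bind CXCR4, had 12.4, 9.58 and 12.7 TPM in vector, 13.6, 8.28 and 8.51 in HIF1α-ko cells, 7.67, 2.26 and 3.75 in HIF2α-ko and 3.37, 1.5 and 0.904 in the dual knockout. The HIF2α-ko libraries lay below all vector libraries and the HIF1α/2α-ko libraries below all of vector and HIF1α-ko. The log2 difference from vector was -0.20 in HIF1α-ko cells (adjusted p = 0.709), -1.29 in HIF2α-ko cells (adjusted p = 0.0394) and -2.18 in the dual knockout (adjusted p = 0.000398). The call in HIF2α-ko was lost when any 1 of 8 libraries was left out, which were all but HIF1α-ko replicate 1, HIF2α-ko replicate 1 and HIF1α/2α-ko replicates 1 and 3 (adjusted p up to 0.15, without HIF2α-ko replicate 2). It was also lost with a pseudocount of 0.1 (0.0599), with no filter (0.0772), with median ratio scaling (0.0607), with quantile normalization (0.0652) and with only these groups fitted (0.0654).

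MIF, a cytokine that binds CD74, CXCR4 and ACKR3, was lower in both groups without HIF1α. It had 1621, 2272 and 2202 TPM in vector, 1170.5, 1066 and 1109 in HIF1α-ko cells, 2508, 2491 and 2596 in HIF2α-ko and 1571, 1459 and 1393 in the dual knockout. All libraries without HIF1α were below all libraries with it. The log2 difference from vector was -0.85 in HIF1α-ko cells (adjusted p = 0.000885), 0.33 in HIF2α-ko cells (adjusted p = 0.108) and -0.45 in the dual knockout (adjusted p = 0.0109, or 0.0553 when only these groups were fitted). MIF was also higher in the dual knockout than in HIF1α-ko, by 0.40 (limma adjusted p = 0.0297). That call was lost without any 1 of 5 libraries (0.0542 to 0.0936), with median ratio scaling (0.142) and with no trend (0.0574).

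ADM, the precursor of adrenomedullin, a vasodilator that ACKR3 scavenges, had 1749, 1284 and 1017 TPM in vector, 1445, 1209.7 and 1288 in HIF1α-ko cells, 1806, 1599 and 1567 in HIF2α-ko and 649.5, 307 and 311 in the dual knockout. Each single knockout overlapped vector and the HIF1α/2α-ko libraries lay below every other library. The log2 difference from vector was -0.01 in HIF1α-ko cells (adjusted p = 0.985), 0.33 in HIF2α-ko cells (adjusted p = 0.453) and -1.73 in the dual knockout (adjusted p = 0.000198). HMGB1, an alarmin that pairs with CXCL12, was named after its values were seen as the 1 ligand that rose, by 1.58 in the dual knockout (adjusted p = 0.0123), which became 0.0557 without vector replicate 3. PENK, the precursor of enkephalins, was called lower there (-0.66, adjusted p = 0.0127), from 0.725 to 0.0701 TPM, and did not pass the filter without vector replicate 1 or HIF1α-ko replicate 1 or 2.

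Of the 13 other receptors, 4 were tested, and CALCRL, RAMP1, RAMP2, RAMP3, ACKR1, ACKR2, ACKR4, GPR182 and CXCR3 were not. CD74, the surface receptor of MIF, was lower than vector in each knockout group, at 127 TPM in vector and 82.2, 78.4 and 81.0 TPM with HIF1α, HIF2α and both lost. The log2 difference was -0.68 in HIF2α-ko (adjusted p = 0.0391) and -0.65 in the dual knockout (adjusted p = 0.0135). The first call was lost without vector replicate 2 or 3, HIF1α-ko replicate 2, any HIF2α-ko library or HIF1α/2α-ko replicate 3 (adjusted p from 0.0501 to 0.151), with no filter (0.0611) and with median ratio scaling (0.119), and the second without vector replicate 3 or HIF1α/2α-ko replicate 2 or 3 (0.0533 to 0.0598). AGER, a receptor of HMGB1, was called in neither, with adjusted p of 0.498 and 0.0617.

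Of the 11 proteases and matrix partners of CXCL12, 10 were tested and 0 were called in HIF2α-ko by limma (2 higher and 1 lower at an unadjusted p under 0.05), while 5 were lower and 1 was higher in the dual knockout. DPP4, the peptidase that removes the first residues of CXCL12, had 82.8, 47.6 and 60 TPM in vector, 55.3, 61.2 and 61.6 in HIF2α-ko and 32.2, 25 and 26.3 in the dual knockout. The last group lay below these others, with a log2 difference from vector of -1.13 (adjusted p = 0.000327). DPP4 was also called lower in HIF1α-ko (-0.58, limma adjusted p = 0.035). That call was lost without any 1 of 5 libraries (0.0594 to 0.124) and with only these groups fitted (0.0837). MMP2, a matrix protease that cleaves CXCL12, fell by 0.67 on the log2 scale in the dual knockout (adjusted p = 0.000396), from 8350.3 ± 534 to 5263 ± 750.3 TPM (SD, n = 3), and was at 6980.3 TPM in HIF2α-ko (adjusted p = 0.158). HSPG2, a heparan sulphate proteoglycan of the basement membrane, differed by -0.77 (adjusted p = 0.00523) in the dual knockout. GPC1, a cell-surface proteoglycan, had 126 TPM in HIF2α-ko against 64.9 in vector, with an adjusted p of 0.0619. ELANE was at 0.467 against 1.82 TPM in HIF1α/2α-ko (adjusted p = 0.00578), a low level in all groups.

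Of the 15 arrestins, receptor kinases and G protein regulators, 13 were tested, with 1 called higher and 2 lower in HIF2α-ko and 2 and 2 in the dual knockout. GRK2, a kinase that phosphorylates both ACKR3 and CXCR4 after ligand binding, had 31.7, 36.3 and 34.6 TPM in vector, 41.1, 48.2 and 45.7 in HIF1α-ko cells, 51.0, 52.4 and 50.2 in HIF2α-ko and 67.4, 64.0 and 62.9 in the dual knockout. The 4 groups did not overlap. GRK2 was highest in the dual knockout, where ACKR3 was lowest, and a link between these genes was not tested. GRK2 rose by 0.57 in HIF2α-ko (adjusted p = 0.00858, or 0.0522 when only these groups were fitted) and 0.90 in the dual knockout (adjusted p = 5.77e-05). It was also called higher in HIF1α-ko (0.39, limma adjusted p = 0.0264), where ACKR3 was not lower. That call was lost without any 1 of 3 libraries and with median ratio scaling (0.339). Its rise from HIF2α-ko to the dual knockout (0.33, limma adjusted p = 0.0295) was lost with median ratio scaling (0.745) and quantile normalization (0.552). GRK6, another receptor kinase, rose by 0.86 in HIF1α/2α-ko (adjusted p = 0.00156) and was at 18.1 against 19.4 TPM in HIF2α-ko.

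GNB1, a G protein β subunit, was lowest in HIF2α-ko, with 258, 397 and 410 TPM in vector, 126, 152 and 145 in HIF2α-ko and 191, 326 and 322 in the dual knockout. It fell by 1.30 in HIF2α-ko (adjusted p = 0.00491) and was not called in the dual knockout (-0.35, adjusted p = 0.202). It became called there without vector replicate 1 (0.0387) and without replicate 1 of every group (0.00356). The same held with median ratio scaling (0.0313) and with the replicate block over all 12 libraries (0.0394). GNG2, a γ subunit, had 6.39, 4.69 and 4.38 TPM in vector, 5.41, 7.19 and 8.01 in HIF1α-ko cells, 2.52, 2.90 and 3.33 in HIF2α-ko and 1.93, 1.57 and 1.77 in the dual knockout, the same order of groups as ACKR3. It differed by -0.64 in HIF2α-ko (adjusted p = 0.0406) and -1.15 in the dual knockout (adjusted p = 0.000292). The first call was lost without any 1 of the libraries other than HIF1α-ko replicate 1 and HIF1α/2α-ko replicate 1 (adjusted p up to 0.125), with no filter (0.062) and with only these groups fitted (0.0894), and GNG2 did not pass a mean of 5 TPM. The β-arrestin genes ARRB2 and ARRB1 were named after their values were seen. ARRB2 fell from 162 to 88.7 TPM in HIF1α-ko (log2 difference -0.88, adjusted p = 0.00526) and to 92.4 in the dual knockout (-0.81, adjusted p = 0.00332), and was at 107 TPM in HIF2α-ko (-0.60, adjusted p = 0.0533). ARRB1 was not called in HIF1α-ko (0.42, limma adjusted p = 0.243, or 0.0162 without vector replicate 1). It was not called in HIF2α-ko (0.18, limma adjusted p = 0.714) or the dual knockout (-0.26, limma adjusted p = 0.424) either.

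Of the 20 genes of signalling downstream of CXCR4, 18 were tested, with 0 higher and 4 lower in HIF2α-ko and 5 higher and 3 lower in the dual knockout. PXN, the focal adhesion adaptor paxillin, had 393, 508 and 467 TPM in vector, 396, 320 and 276 in HIF1α-ko cells, 272, 214 and 246 in HIF2α-ko and 200, 148 and 160 in the dual knockout. It fell by 0.90 in HIF2α-ko (adjusted p = 0.00678) and 1.43 in the dual knockout (adjusted p = 3.54e-05), and differed by -0.47 in HIF1α-ko (adjusted p = 0.0534). RAC1, a small GTPase of cell migration, fell by 0.70 in HIF2α-ko (adjusted p = 0.0104, or 0.0572 when only these groups were fitted) and was at 310.3 against 266 TPM in HIF1α/2α-ko (adjusted p = 0.19). DOCK2, an activator of RAC, fell from 14.8 TPM in vector to 6.59 in HIF1α-ko cells (adjusted p = 0.000869), 9.50 in HIF2α-ko cells (adjusted p = 0.0314) and 4.08 in the dual knockout (adjusted p = 9.24e-06). The HIF2α-ko call of DOCK2 did not hold without vector replicate 2 or 3, HIF1α-ko replicate 3 or any HIF2α-ko library (0.0505 to 0.109), nor with median ratio scaling (0.0655), quantile normalization (0.0738) or only these groups fitted (0.0847). MAPK3, the kinase ERK1, fell by 0.93 in HIF1α-ko (adjusted p = 0.00434) and 1.20 in the dual knockout (adjusted p = 0.000254). In HIF2α-ko it differed by -0.63 (adjusted p = 0.0486), a call lost without any 1 of the libraries other than vector replicate 1, HIF1α-ko replicate 1 and HIF1α/2α-ko replicates 1 and 2 (up to 0.174), and under a pseudocount of 0.1, no filter, either rescaling, only these groups fitted and no trend (0.0502 to 0.153).

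All 16 genes of receptor trafficking and degradation were tested, with 0 higher and 2 lower in HIF2α-ko and 4 higher and 2 lower in the dual knockout. RAB7A, a GTPase of late endosomes, had 575, 572 and 868 TPM in vector, 343, 402 and 402 in HIF2α-ko and 611, 572 and 588 in the dual knockout. It fell by 0.79 in HIF2α-ko (adjusted p = 0.00741, or 0.0521 when only these groups were fitted) and was not called in the dual knockout (adjusted p = 0.407). RAB7A was also called lower in HIF1α-ko (-0.50, limma adjusted p = 0.0284). That call was lost without any 1 of 4 libraries (0.0588 to 0.0934) and with only these groups fitted (0.0831). DNM2, the dynamin that pinches off endocytic vesicles, differed by -0.65 in HIF2α-ko (adjusted p = 0.043), lost without any 1 of the libraries other than vector replicate 1 and HIF1α/2α-ko replicate 1 (up to 0.178), and under no filter, either rescaling, only these groups fitted and no trend (0.051 to 0.129). In HIF1α/2α-ko VPS4A, an ATPase of multivesicular bodies, rose by 1.24 (79.0 to 185 TPM, adjusted p = 4.5e-05), USP14, a deubiquitinase, rose by 0.86 (adjusted p = 0.00716), and CAV1, the coat protein of caveolae, fell by 1.40 (652 to 249 TPM, adjusted p = 0.000118). RAB4A, a GTPase of rapid recycling, had 3.83 to 4.31 TPM in vector and 2.47 to 3.05 in HIF2α-ko, with adjusted p of 0.0722, and 0.0502 in the dual knockout.

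All 14 transcription regulators were tested, with 0 higher and 2 lower in HIF2α-ko (EPAS1 and ARNT) and 5 and 5 in the dual knockout. Among the lower genes were the knockout targets, EPAS1 in both groups and HIF1A in the dual knockout. ARNT, the partner that both HIFα subunits need to bind DNA, fell from 33.5 TPM in vector to 20.3 in HIF2α-ko (log2 difference -0.69, adjusted p = 0.0133) and 20.1 in the dual knockout (-0.70, adjusted p = 0.00231). The first call did not hold without replicate 2 of vector (0.0516) or replicate 1 of HIF2α-ko (0.0518), nor with only these groups fitted (0.054). ARNT was also called lower in HIF1α-ko (-0.46, limma adjusted p = 0.0393). That call was lost without any 1 of 8 libraries (up to 0.147) and with only these groups fitted (0.0888). EGLN3, a HIF prolyl hydroxylase that hypoxia induces, had 19.7, 6.68 and 7.66 TPM in vector, 7.09, 12.7 and 13.2 in HIF2α-ko and 0.771, 2.96 and 2.21 in the dual knockout. It was not called in HIF2α-ko (log2 difference 0.06, adjusted p = 0.943) and fell by 1.98 in the dual knockout (adjusted p = 0.00114), a pattern that ADM and CCRL2 also had and ACKR3 did not.

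Between knockout groups the same lists moved as follows. In HIF1α/2α-ko against HIF1α-ko, which adds the loss of HIF2α, 14 list genes were higher and 16 lower, against 28.3% of all genes tested called in either direction, 17.7% and 10.6% of all genes tested. In HIF1α/2α-ko against HIF2α-ko, which adds the loss of HIF1α, 23 were higher and 16 lower, against 46.4% called, 33.5% and 12.9% of all, and with median ratio scaling 12 and 23. In HIF2α-ko against HIF1α-ko 9 were higher and 12 lower, against 25.1% called, 7.37% and 17.8% of all, and with median ratio scaling 15 and 7. Same-numbered libraries of the knockout groups deviated together, and with the replicate number as a block over these groups the counts of higher genes became 30 in the first and 17 in the last comparison, and of lower genes 32 in the last. Of the higher counts, the 14 became 9 and 7 without HIF1α-ko replicate 2 or 3 and 8 and 7 without replicate 2 or 3 of the dual knockout, the 23 became 15 without HIF2α-ko replicate 1 and 14 without dual knockout replicate 3, and the 9 became 4 without HIF1α-ko replicate 3 and 5 without HIF2α-ko replicate 3. The 12 lower genes of HIF2α-ko against HIF1α-ko became 6 without HIF1α-ko replicate 2. The interaction was called for 20 list genes, 11 higher and 9 lower, against 20.6% of all genes tested (13.2% higher and 7.35% lower), and the 11 became 7 without HIF2α-ko replicate 2 or dual knockout replicate 3.

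The 5 tested genes with levels most like those of ACKR3, by Pearson's r of log2(TPM + 1) over the 12 libraries among 11730 other genes, were TGFBI, F2R, S1PR1, ARRDC3 and MARCHF3. The r was 0.980 for TGFBI, a secreted matrix protein, 0.974 for F2R, the thrombin receptor PAR1, 0.973 for S1PR1, a receptor of sphingosine 1-phosphate, 0.971 for ARRDC3, an α-arrestin, and 0.969 for MARCHF3, a ubiquitin ligase. These 12 points are 4 groups of 3 libraries, so r mainly reflects the order of the group means. The mean of TGFBI was 10999 TPM in vector, 14608 in HIF1α-ko cells, 5071 in HIF2α-ko and 2941 in the dual knockout. ARRDC3 had 71.2, 78.6, 32.6 and 17.5 TPM in the same order, and F2R had 19.3, 24.4, 11.7 and 8.83. S1PR1 had 2.84, 2.76, 1.40 and 1.20 TPM, and MARCHF3 had 12.7, 10.5, 5.74 and 4.39. The log2 difference from vector in HIF2α-ko lay between -1.13 for ARRDC3 and -0.67 for S1PR1, each smaller in size than the -2.57 of ACKR3. Of these 5, 3 were among the nearest 5 when vector replicate 1, 2 or 3, HIF1α-ko replicate 1 or dual knockout replicate 2 was left out, and 0 when replicate 1 of every group was, while their r over the alternatives stayed between 0.935 and 0.987. Among the list genes r was highest for EPAS1 (0.936) and GNG2 (0.931) and lowest for GRK2 (-0.840). EPAS1 was the gene targeted in the groups whose low values chose ACKR3, so its high r was set by the design.

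**Figure D3:**
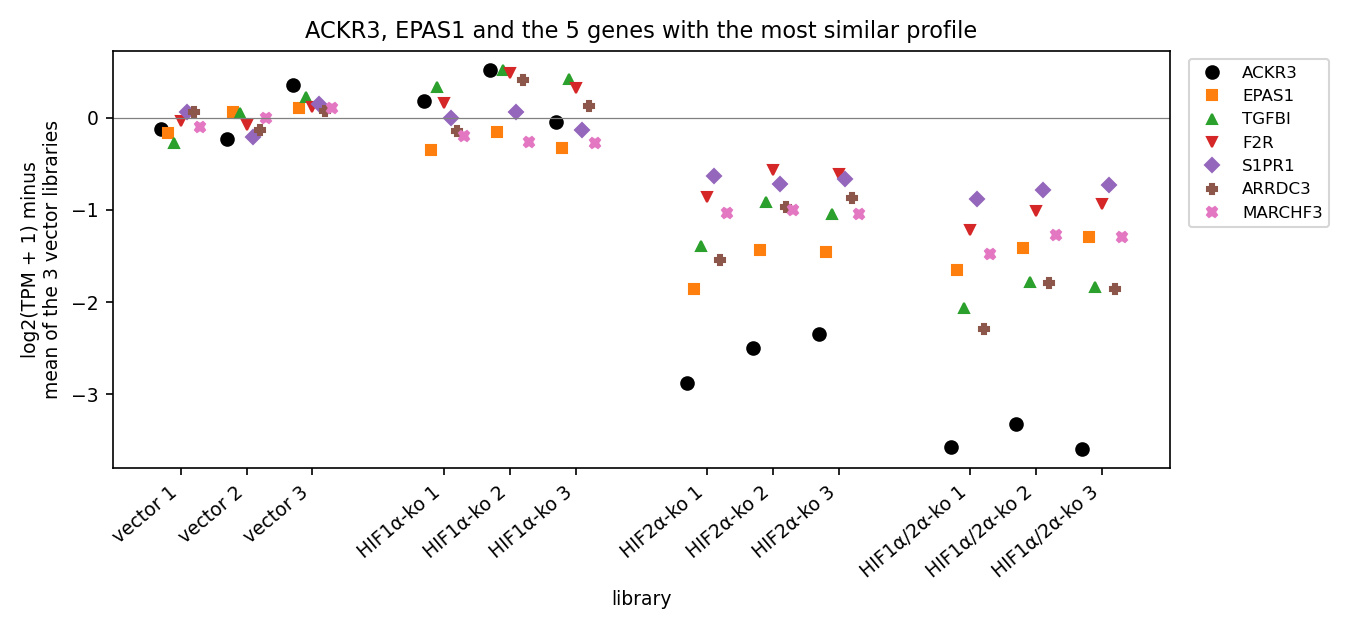
log2(TPM + 1) minus the mean of the vector libraries for ACKR3, EPAS1 and the 5 genes with the most similar levels, with 1 point for each gene in each of the 12 libraries. All 7 genes lie below 0 in every library of HIF2α-ko and HIF1α/2α-ko, and ACKR3 lies lowest, on average at -2.57 and -3.49.

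The genes beside ACKR3 on chromosome 2 were also measured. Of the 9 protein-coding genes of the table within 1 Mb on either side, AGAP1, COPS8, COL6A3 and MLPH were tested and GBX2, ASB18, IQCA1, PRLH and RAB17 stayed under 1 TPM. In HIF2α-ko 0 of the 4 were called by limma (1 lower at an unadjusted p under 0.05), with adjusted p between 0.133 and 0.761 and log2 differences between -0.54 and -0.12. COL6A3, a collagen chain gene 741645 bp from ACKR3, had 953, 510.1 and 518 TPM in vector, 1289, 1403 and 1270.5 in HIF1α-ko cells, 345, 523 and 453 in HIF2α-ko and 287, 329 and 336 in the dual knockout. It rose by 1.06 in HIF1α-ko (adjusted p = 0.00495) and fell by 0.99 in the dual knockout (adjusted p = 0.0027). MLPH differed by -0.56 in the dual knockout (adjusted p = 0.0416), a call lost without any 1 of 9 libraries, all but vector replicate 1 and HIF1α-ko replicates 1 and 2 (0.0504 to 0.174), with no filter (0.0646) and with only these groups fitted (0.105).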

How the data were processed

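Poly(A) messenger RNA of U87 cells in 4 groups of 3 libraries was measured by RNA sequencing. The submitters' processing notes name FastQC 0.11.2, Trimmomatic 0.36, HISAT2 2.0, bedtools 2.26.0 and GRCh38, while the program that made the TPM values and the annotation are not given in the sources used here. The authors deposited TPM values (reads divided by gene length and scaled to a fixed total per library), 1 column for each library with no pooling, which sum to between 999955 and 999982. Depth is therefore unknown, no counting error can be given, and count models were not used. Columns that carry no knockout code were taken as the libraries titled Control, called vector here. Of 20263 genes, 20148 were matched to a symbol by identifier and 76 more through GENCODE 29, from which positions come.

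TPM was transformed to log2(TPM + 1), and limma 3.58.1 (R 4.3.3) was fitted to all 4 groups together, with a mean-variance trend, for the 11731 genes that reached 1 TPM in 3 or more libraries. Each adjusted p is by Benjamini-Hochberg over the genes tested within a comparison, with a threshold of 0.05. Differences are log2 and understate the change of genes at a low level. TPM of ACKR3 chose that gene, so no test of it is given, though it was in the fit and in counts over all genes. In each list the 3 genes with the smallest p against vector in each HIF2α-deficient group were named, beside the members, HIF1A, EPAS1 and the 5 genes most like ACKR3. HMGB1, PENK, ARRB1, ARRB2, CCR1, CCR10, XCR1 and the neighbours of ACKR3 were named after their values were seen. Of the genes that the rule names, 2 are not reported here, though counts include them. The members and lists were chosen with earlier results of these data known. Same-numbered libraries deviated together between knockout groups (Pearson's r across genes 0.196 to 0.508) and less so between vector and knockouts (-0.0265 to 0.163), so the numbers were taken to pair the knockout groups only, from the values and not from a label. Alternatives were a pseudocount of 0.1, no filter, a mean TPM of at least 5, median ratio scaling, quantile normalization, the 2 groups compared only, no trend, the replicate block, each library left out, replicate 1 of every group left out and a log2 size of at least 1. The fit was tested on simulated data. Python 3.11.15 (with numpy 2.4.6, pandas 2.3.3 and matplotlib 3.10.9) wrote the tables and plots. Promoter sequences are from RefSeq (GRCh38.p14), which matched 2 of the 3 genes.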

Additional observations from a re-analysis of the deposited data

Results flagged for a closer look

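In each result here the effect of HIF2α loss was compared with HIF1α already lost (HIF1α/2α-ko against HIF1α-ko) and with HIF1α present (HIF2α-ko against vector), by the interaction term of the limma fit, and the named gene passed a Benjamini-Hochberg adjusted p of 0.05. A negative value means that the gene was lower by more, or higher by less, when HIF1α was also lost. As background, 20.6% of all genes tested passed.

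Among negative values, EGLN3 (a HIF prolyl hydroxylase) had a log2 interaction of -3.09 (adjusted p = 0.00305) and ADM one of -2.05 (adjusted p = 0.00334). COL6A3, a neighbour of ACKR3, had -1.51 (adjusted p = 0.00608), the neutrophil elastase gene ELANE -1.40 (adjusted p = 0.0161) and CCRL2 -1.25 (adjusted p = 0.0198). GNG2 had -0.86 (adjusted p = 0.0335) and MMP2 -0.59 (adjusted p = 0.0216). PENK had -0.84 (adjusted p = 0.0422), a call lost, or a gene no longer tested, without any 1 library but HIF1α/2α-ko replicate 1, without all replicate 1 libraries or with a mean of at least 5 TPM required, and lost with quantile normalization (0.073). ELANE and GNG2 did not pass the mean of 5 TPM either. That of MMP2 was lost without vector replicate 3, HIF2α-ko replicate 2 or HIF1α/2α-ko replicate 2 or 3 (0.0518 to 0.0593), with no filter (0.0701), with median ratio scaling (0.0782) and with quantile normalization (0.0622), that of CCRL2 without HIF1α-ko replicate 3 (0.051), and that of GNG2 without replicate 2 or 3 of any group (0.0675 to 0.0876) and with no filter (0.052). ACKR3, for which no test is given, had -1.14.

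Among positive values, GNB1 had a log2 interaction of 1.31 (adjusted p = 0.0117) and DNM2 one of 1.21 (adjusted p = 0.00832). HIF1A had 1.15 (adjusted p = 0.0131), RAC1 1.14 (adjusted p = 0.00334) and RAB7A 1.13 (adjusted p = 0.00409). HIF1A was itself targeted in HIF1α-ko and the dual knockout, where it differed from vector by -1.34 and -0.71. Its interaction therefore includes how much transcript each knockout left, and cannot be read as an effect of HIF2α loss alone. GRK6 had 0.87 (adjusted p = 0.0266) and VPS4A 0.84 (adjusted p = 0.0161). The call of GRK6 was lost without HIF1α-ko replicate 2 or without replicate 2 or 3 of vector, HIF2α-ko or HIF1α/2α-ko (0.0556 to 0.0686), with median ratio scaling (0.0699) and with quantile normalization (0.0799). GNB1, RAC1, RAB7A and DNM2 were lower than vector in HIF2α-ko and not called in HIF1α/2α-ko, where the mean was 279.8 TPM for GNB1, 310.3 for RAC1, 590.5 for RAB7A and 60.8 for DNM2. GNB1 became called in HIF1α/2α-ko without vector replicate 1 (limma adjusted p = 0.0387) and with median ratio scaling (0.0313). The HIF2α-ko call of DNM2 was lost without any 1 of 10 libraries.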

How the results depend on the processing

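The ACKR3 differences kept their direction under every alternative run. With 1 of the 12 libraries left out they ranged from 0.07 to 0.40 for HIF1α-ko against vector, -2.69 to -2.40 for HIF2α-ko against vector, -3.61 to -3.32 for HIF1α/2α-ko against vector, -3.84 to -3.56 for HIF1α/2α-ko against HIF1α-ko, -1.07 to -0.81 for HIF1α/2α-ko against HIF2α-ko, -2.92 to -2.64 for HIF2α-ko against HIF1α-ko and -1.31 to -0.98 for the interaction. With quantile normalization the value for HIF1α/2α-ko against HIF2α-ko was -1.25 and the interaction -1.41, and no other alternative moved ACKR3 by more than the spread between libraries. A pseudocount of 0.1 moved the CXCR4 difference to 1.5 for HIF1α-ko against vector, 0.10 for HIF2α-ko against vector, -1.52 for HIF1α/2α-ko against HIF1α-ko, -0.12 for HIF1α/2α-ko against HIF2α-ko, -1.40 for HIF2α-ko against HIF1α-ko and -1.62 for the interaction, and CXCL12, at 0 throughout, gave no value under any alternative.

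With no filter, the counts of list genes that moved by over 1.5 times were 4 higher in HIF1α-ko against vector and 7 lower in HIF2α-ko against vector. With a mean TPM of at least 5, the counts of list genes that moved by over 1.5 times were 5 lower in the interaction. With median ratio scaling, the counts of list genes that moved by over 1.5 times were 2 higher in HIF1α-ko against vector, 7 lower in HIF2α-ko against vector, 12 higher in HIF1α/2α-ko against HIF2α-ko, 15 higher in HIF2α-ko against HIF1α-ko and 7 lower in HIF2α-ko against HIF1α-ko. With quantile normalization, the counts of list genes that moved by over 1.5 times were 4 higher in HIF1α-ko against vector, 2 higher in HIF2α-ko against vector, 11 higher in HIF1α/2α-ko against vector and 14 higher in HIF1α/2α-ko against HIF2α-ko. With only the 2 groups compared in the fit, the counts of list genes that moved by over 1.5 times were 2 higher in HIF1α-ko against vector, 9 lower in HIF1α-ko against vector, 0 higher in HIF2α-ko against vector and 4 lower in HIF2α-ko against vector. With the replicate number as a block over all 12 libraries, the counts of list genes that moved by over 1.5 times were 12 higher in HIF1α-ko against vector, 4 higher in HIF2α-ko against vector and 24 higher in HIF1α/2α-ko against HIF1α-ko. With the replicate block over the 3 knockout groups, the counts of list genes that moved by over 1.5 times were 30 higher in HIF1α/2α-ko against HIF1α-ko, 17 higher in HIF2α-ko against HIF1α-ko and 32 lower in HIF2α-ko against HIF1α-ko. With replicate 1 of every group left out, the counts of list genes that moved by over 1.5 times were 24 higher in HIF1α-ko against vector, 24 lower in HIF1α-ko against vector, 15 higher in HIF2α-ko against vector, 20 lower in HIF2α-ko against vector, 28 higher in HIF1α/2α-ko against HIF1α-ko, 19 higher in HIF2α-ko against HIF1α-ko, 28 lower in HIF2α-ko against HIF1α-ko, 20 higher in the interaction and 16 lower in the interaction. With a log2 difference of at least 1 in size required, the counts of list genes that moved by over 1.5 times were 1 higher in HIF1α-ko against vector, 3 lower in HIF1α-ko against vector, 0 higher in HIF2α-ko against vector, 3 lower in HIF2α-ko against vector, 6 higher in HIF1α/2α-ko against vector, 12 lower in HIF1α/2α-ko against vector, 0 higher in HIF1α/2α-ko against HIF1α-ko, 9 lower in HIF1α/2α-ko against HIF1α-ko, 8 higher in HIF1α/2α-ko against HIF2α-ko, 7 lower in HIF1α/2α-ko against HIF2α-ko, 3 higher in HIF2α-ko against HIF1α-ko, 4 lower in HIF2α-ko against HIF1α-ko and 6 higher in the interaction. With 1 library left out the counts ranged over 1 to 15 higher in HIF1α-ko against vector, 7 to 18 lower in HIF1α-ko against vector, 1 to 4 higher in HIF2α-ko against vector, 5 to 13 lower in HIF2α-ko against vector, 7 to 20 higher in HIF1α/2α-ko against HIF1α-ko, 14 to 24 higher in HIF1α/2α-ko against HIF2α-ko, 4 to 12 higher in HIF2α-ko against HIF1α-ko, 6 to 16 lower in HIF2α-ko against HIF1α-ko and 7 to 14 higher in the interaction. The count of 131 genes with the calls of ACKR3, which includes ACKR3, became 58 with only the 2 groups compared, 207 with the replicate block over all 12 libraries, 198 with replicate 1 of every group left out, 34 with a log2 difference of at least 1 required, and 60 to 165 with 1 library left out. Over the alternatives without a size rule, the genes called lower of all those tested ranged from 540 to 1831 in HIF1α-ko, 219 to 1875 in HIF2α-ko and 1209 to 2852 in HIF1α/2α-ko, and those called higher from 999 to 4534, 224 to 2378 and 2698 to 5253. The cause of these shifts was not tested.

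Of the genes that the rule names and that were called against vector, 6 of 13 in HIF2α-ko, 22 of 24 in HIF1α/2α-ko and 4 of 11 in HIF1α-ko kept the call with each library left out. The knockout targets HIF1A and EPAS1 are among them. The genes were named by the smallest p in the groups without HIF2α, so the shares kept there follow in part from that choice. The same share over all called genes was not computed. TPM keeps no depth, so no detection limit could be set for CXCR4 or CXCL12, and a value of 0 says only that the gene is listed at 0.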
